A study of Mus musculus with 4 samples.

Results

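The T cell receptor (TCR) α chain is assembled in the thymus by joining 1 of many TRAV segments to 1 of many TRAJ segments on mouse chromosome 14, and the TRAV13 family is one such group of closely related TRAV segments. Its members were taken here as the TCRα clones whose best-scoring V segment was a TRAV13, TRAV13D or TRAV13N segment, leaving out the dual-use segment TRAV13-4-DV7, which can also join in the TCRδ chain. This gave 15924 of the 189388 TCRα clones in 4 libraries, a clone being one distinct deposited sequence from framework region 1 (FR1) to framework region 4. The family held 3381 clones in WT replicate 1, 4024 in WT replicate 2, 3901 in Tet2/3 DKO replicate 1 and 4618 in Tet2/3 DKO replicate 2. Because a clone count also counts sequence variants, most values below are given per rearrangement, one combination of V segment number, TRAJ segment and CDR3 nucleotide sequence within a library, of which the family had 2871, 3406, 3334 and 3876 in the same order.

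The study asked whether loss of the methylcytosine dioxygenases TET2 and TET3 changes the TCR repertoire of CD4 T cells. The libraries were made from splenic CD4+ T cells of 25-day-old mice, sorted as CD25- and TCRβ+ and negative for the αGalCer-loaded CD1d tetramer that stains iNKT cells. The 2 WT mice were C57BL/6, and the 2 Tet2/3 DKO mice were Tet2-/- in all cells and Tet3 flx/flx with a CD4Cre transgene, so that Tet3 was removed in T lineage cells only. Total TCRα reads per library were 172506 and 216457 for WT mice and 195046 and 287799 for Tet2/3 DKO mice. Reads were not collapsed by molecular identifiers, so intervals given below cover counting error only, and the tables hold TCR transcripts, from which the deletion of Tet2 and Tet3 cannot be read. The invariant iNKT chain, TRAV11 family with TRAJ18 and a CDR3 of 15 amino acids, took 0.062% and 0.0541% of TCRα reads in WT, compared with 0.0302% and 0.0191% in Tet2/3 DKO. The chain of the MAIT cell, TRAV1 with TRAJ33, took 0.00452% to 0.0185% of TCRα reads. In bulk RNA, fewer cells carrying a segment and less RNA per cell cannot be told apart.

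A TRAV segment encodes the first 2 of the 3 loops with which the α chain touches its ligand, CDR1 and CDR2, which mostly contact the MHC molecule, and the start of the third, CDR3, which spans the V-J joint and mostly contacts the peptide. The α locus can rearrange again on the same chromosome: early joints use TRAV segments and TRAJ segments that lie close to each other, and later joints replace them with more distant TRAV and lower-numbered TRAJ segments. In C57BL/6 mice part of the TRAV cluster is repeated, and segments in the repeated blocks carry the letters D or N. RefSeq (GRCm38.p6, the mm10 build) lists 13 segments with a Trav13 name, including Trav13-4-dv7, in an order on chromosome 14 that runs from Trav13d-1 at chr14:52851355-52851866 to Trav13-5 at chr14:53795455-53795963. The D copies come first, the N copies follow, and the copies without a letter, such as Trav13-1 at chr14:53545014-53545525 and Trav13-2 at chr14:53634888-53635399, lie nearest to the TRAJ segments. Of these, 9 were found as the best V segment of at least 1 member clone. Trav13-3 and Trav13-5 were named in no hit of any TCRα clone, and TRAV13N-2 occurred only as a second hit. Among 4269 clones assigned to TRAV13D-2, 4249 had TRAV13N-2 at the same alignment score, so that TRAV13D-2 stands below for both copies. Only 32 clones of the other copies had tied hits.

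The CDR1 of each copy, read from clones with an in-frame CDR3 and shown because it divides the 9 copies into 5 groups, is given 5′ to 3′ on the coding strand, with capitals at the bases that differ from TRAV13-1.
TRAV13-1, TRAV13D-1 and TRAV13N-1: acatctttgaacagt
TRAV13D-3 and TRAV13N-3: acaActttgaacagt
TRAV13-2 and TRAV13D-4: TcCAcAGCAaCcCgG
TRAV13D-2: TcCAcAGCAaCcCAG
TRAV13N-4: aTCtTtACAaacCAG
Each of these was carried by at least 96.7% of the copy's clones. The CDR2 was the same 15 bases in every copy except TRAV13D-3 and TRAV13N-3, where it was 18 bases long.
CDR2 of TRAV13D-3 and TRAV13N-3: agtccttcttgggcagag
CDR2 of the other copies: aatccttctgggaca
The germline start of the CDR3, again with capitals where it differs from TRAV13-1, fell into 3 forms.
TRAV13-1: tgtgctttggaa
TRAV13-2 and TRAV13D-2: tgtgctAtAgaT
TRAV13D-1, TRAV13N-1, TRAV13D-3, TRAV13N-3, TRAV13D-4 and TRAV13N-4: tgtgctAtggaa
TRAV13D-4 thus has the CDR1 of TRAV13-2 and the CDR3 start of TRAV13D-1, while TRAV13D-1 and TRAV13N-1 share all these stretches, as do TRAV13D-3 and TRAV13N-3, and were assigned by bases elsewhere in the V part.

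The family took about the same part of the TCRα reads in all 4 mice, and 2 assigned segments carried most of it. Its share of TCRα reads was 7.06% in WT replicate 1, 6.93% in WT replicate 2, 6.90% in Tet2/3 DKO replicate 1 and 7.24% in Tet2/3 DKO replicate 2. The 2 genotypes overlapped, with means of 6.99% ± 0.0896 (SD, n = 2) in WT and 7.07% ± 0.241 (SD, n = 2) in Tet2/3 DKO and an exact two-sided permutation p of 1.0. With 2 libraries against 2 this test cannot give a p below 0.333, here or in the other comparisons of genotypes. Without its own largest rearrangement, each library's share lay between 6.86% and 6.95%.

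By reads, TRAV13-1 was the most used copy in all 4 libraries. It took 2.33% and 2.04% of TCRα reads in WT samples versus 1.97% and 2.58% in Tet2/3 DKO samples, and the genotypes overlapped. TRAV13D-2, with its tied copy, took 1.87% and 1.94% for WT mice and 1.89% and 1.74% for Tet2/3 DKO mice. The ranges of these 2 segments did not overlap over the 4 libraries, but they lay close to each other, at 1.97% against 1.94% of TCRα reads at the nearest. By rearrangements the order turned in 3 of 4 libraries: TRAV13D-2 had 772, 950 and 895 where TRAV13-1 had 762, 913 and 881, and in Tet2/3 DKO replicate 2 it had 1004 against 1067. TRAV13-2 (0.648% to 0.827%) and TRAV13N-1 (0.664% to 0.753%) overlapped and came next. TRAV13N-4 followed with 0.474% to 0.528%, and TRAV13D-1 with 0.361% to 0.407%. TRAV13D-3 (0.244% to 0.302%) lay above TRAV13N-3 (0.183% to 0.223%), and TRAV13D-4 was lowest at 0.125% to 0.166%. In each of the 3 pairs of D and N copies with the same number that could be told apart, the D copy was used less than the N copy for numbers 1 and 4 and more for number 3, in all 4 libraries. The direction for number 3 rests on a second form of TRAV13D-3 with a short FR1, described below: in clones with the long FR1 alone, TRAV13D-3 had 85 and 177 reads in WT and 150 and 308 in the DKO libraries, fewer than the 356 and 434, then 325 and 599, of TRAV13N-3.

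**Figure D1:**
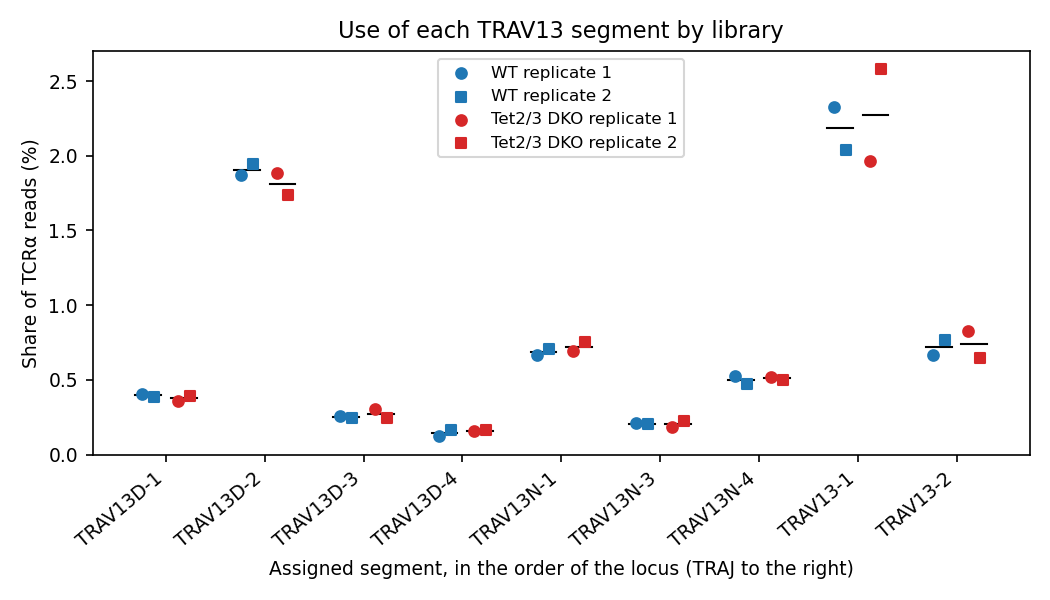
Share of TCRα reads (%) of each assigned TRAV13 segment in the 4 libraries, in the order of the locus, with circles for replicate 1, squares for replicate 2 and a bar for the mean of each genotype. TRAV13-1 and TRAV13D-2 stand above 1.7% in every library, and the other 7 segments below 0.83%.

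No TRAV13 copy passed the test for a difference between Tet2/3 DKO and WT. In edgeR's quasi-likelihood test on reads per TRAV segment, 0 of 9 copies had an adjusted p under 0.05, against 0.0% of the 97 TRAV segments tested. None had an unadjusted p under 0.05 either, and DESeq2 called 0 as well. The fitted log2 fold changes (Tet2/3 DKO over WT) ran from -0.07 ± 0.22 (SE) for TRAV13D-1 to 0.13 ± 0.34 (SE) for TRAV13D-4, with an adjusted p of 0.975 for each of the 9 in edgeR. The SE of the 2 most used copies, TRAV13-1 and TRAV13D-2, was 0.18 and 0.15. Pairs of the TRAV13 family with single TRAJ segments were tested in the same way, and 0 of 43 pairs were called, against 0.0% of 692 pairs of V family and TRAJ. TRAJ47 was the only one of the 43 with an unadjusted p under 0.05 in edgeR, at a log2 fold change of -0.73 ± 0.37 (SE) and an adjusted p of 0.882.

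TRAJ usage varied among the copies far more than between the mice. TRAJ segments are numbered downwards along the chromosome, so a high number means a TRAJ close to the TRAV segments. The mean TRAJ number of TRAV13-2 rearrangements was 38.3 and 37.5 in WT, compared with 37.3 and 37.4 in Tet2/3 DKO. TRAV13-1 had means of 32.2 and 32.9 in WT samples versus 32.4 and 32.2 in Tet2/3 DKO samples. Both of these copies lie near the TRAJ end of the cluster and stood above TRAV13D-1, which ranged from 26.3 to 28.4. The other D and N copies except TRAV13D-3 lay between 20.6 and 25.4 in every library. TRAV13N-4 (23.6 to 24.9) lay above TRAV13D-2 (20.6 to 23.1) without overlap, and the ranges of TRAV13N-1, TRAV13N-3 and TRAV13D-4 overlapped with each other. TRAV13D-1 and TRAV13N-1 share CDR1, CDR2 and CDR3 start, yet their ranges were apart, 26.3 to 28.4 against 22.5 to 23.9. The means by assigned copy thus did not run in the order of the locus, since TRAV13D-1 is the farthest from the TRAJ segments. Whether clones assigned to TRAV13D-1 came from other segments was not tested.

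Within each library the rearrangements of TRAV13-1 and TRAV13-2 were compared with those of all D and N copies. Their mean TRAJ number was higher in 4 of 4 libraries, 34.06, 34.27, 34.04 and 33.78 against 24.66, 24.20, 24.35 and 23.06 for WT replicates 1 and 2 and Tet2/3 DKO replicates 1 and 2. The mean difference was 9.97 ± 0.569 (SD, n = 4), with an exact two-sided sign-flip permutation p of 0.125, the smallest that 4 libraries can give. In the same direction, TRAJ1 to TRAJ13 took 6.11% ± 1.08 (SD, n = 4) of the in-frame rearrangements of TRAV13-1 and TRAV13-2, and 26.9% ± 1.69 (SD, n = 4) of those of the D and N copies. TRAJ37 to TRAJ47 took 32.0% ± 2.25 (SD, n = 4) and 12.1% ± 1.28 (SD, n = 4).

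**Figure D2:**
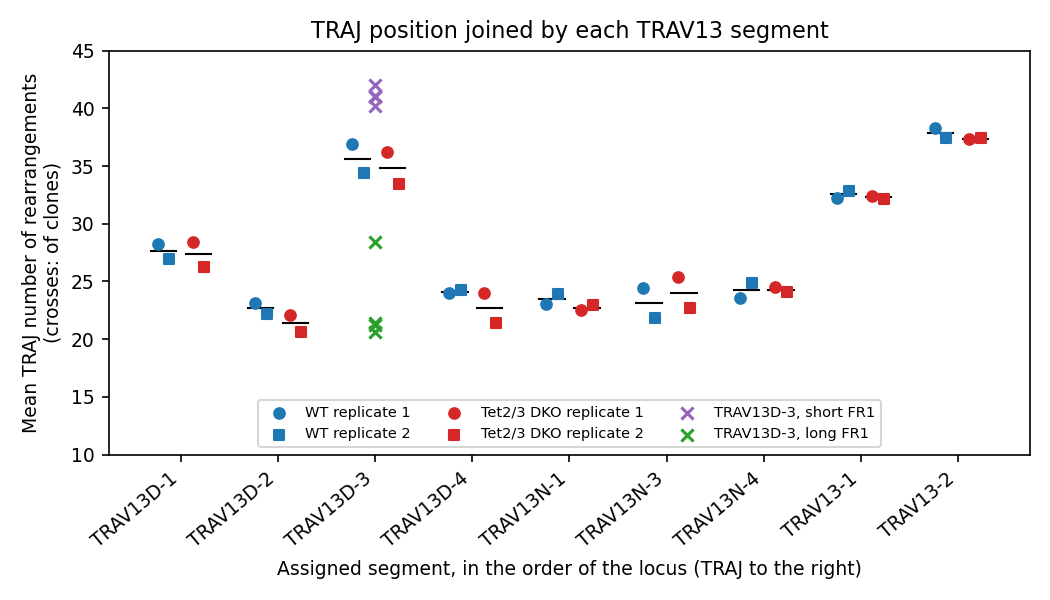
Mean TRAJ number of the rearrangements of each TRAV13 segment, in the order of the locus, with circles for replicate 1, squares for replicate 2 and bars for genotype means; crosses give the TRAV13D-3 clones of each library split by FR1 length. TRAV13-1 and TRAV13-2 stand above 32, most D and N copies between 20.6 and 25.4, and the TRAV13D-3 crosses fall into a group above 40 and a group below 29.

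The clones assigned to TRAV13D-3 were of 2 kinds. Of the 665 with a whole V part, 438 had an FR1 of 80 bases and 217 an FR1 of 81 bases, while 501 of 525 TRAV13N-3 clones had the 81-base form. The most common sequence of each kind is shown because they differ in a single run of C, set in capitals, of 6 bases in the short form and 7 in the long.
TRAV13D-3, short FR1: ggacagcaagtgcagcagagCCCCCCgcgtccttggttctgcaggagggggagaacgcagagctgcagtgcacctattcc
TRAV13D-3, long FR1: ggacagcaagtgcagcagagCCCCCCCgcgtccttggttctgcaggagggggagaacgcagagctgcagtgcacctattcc
The length 80 is not a multiple of 3, so the short form shifts the reading frame before CDR1. Clones with the short FR1 had a mean TRAJ number of 40.2 and 41.1 for WT mice and 42.0 and 41.0 for Tet2/3 DKO mice. Those with the long FR1 had 28.4 and 20.6 in WT, compared with 21.4 and 21.2 in Tet2/3 DKO, the highest value resting on 30 clones. The difference was 18.2 ± 4.32 (SD, n = 4), in the same direction in 4 of 4 libraries, with an exact sign-flip permutation p of 0.125. The long form lay near TRAV13N-3, whose 81-base clones had means of 22.6 to 25.3. An in-frame CDR3 was found in 45.7% of short-form clones (190 of 416, Wilson 95% interval 40.9% to 50.5%) and in 68.4% of long-form clones (141 of 206, interval 61.8% to 74.4%). RefSeq gives Trav13-3, at chr14:53729558-53730074, a length of 517 bases and Trav13d-3 and Trav13n-3 a length of 518 bases. Which segment the short form came from was not tested.

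A smaller group stood apart among the clones assigned to TRAV13D-2. In 108 of them the CDR2 was 12 bases long instead of 15, and the median V alignment score was 2256 against 3440 for the others. All 108 had the same CDR1 and CDR2, the CDR1 with capitals where it differs from TRAV13-1.
CDR1 of the 12-base CDR2 group: aTCtctACAaacCAG
CDR2 of the 12-base CDR2 group: attcctggaatg
Their mean TRAJ number was 40.5 and 44.2 in WT samples versus 41.8 and 36.9 in Tet2/3 DKO samples, from 24 to 32 clones a library. The 15-base group had 22.7 and 21.8 for WT mice and 21.9 and 20.3 for Tet2/3 DKO mice. RefSeq lists Trav13-5, the copy nearest to the TRAJ segments, at 509 bases, against 526 for Trav13d-2 and 512 for Trav13-1. Its part in this group was not tested.

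Seen as a whole, the family joined slightly lower-numbered TRAJ segments than the other TRAV segments did. Its mean TRAJ number was 28.2, 28.1, 28.2 and 27.3 in WT replicates 1 and 2 and Tet2/3 DKO replicates 1 and 2, and that of other TRAV rearrangements 29.3, 29.3, 29.2 and 28.8. The mean number was lower for the family in 4 of 4 libraries, with a difference of -1.19 ± 0.195 (SD, n = 4; exact sign-flip permutation p = 0.125). Among nonproductive rearrangements alone the difference was -0.717 ± 0.345 (SD, n = 4), again lower in 4 of 4 libraries, and among in-frame ones alone it was -1.30 ± 0.198 (SD, n = 4). Between genotypes the family's means overlapped, with an exact permutation p of 0.667. Among nonproductive rearrangements alone they did not, at 28.48 and 28.74 in WT, compared with 28.31 and 27.62 in Tet2/3 DKO, a difference of -0.644 instead of -0.425, at the smallest exact permutation p of 0.333. Nonproductive rearrangements of other TRAV were lower in Tet2/3 DKO as well, at 29.14 and 29.12 in WT against 28.93 and 28.82.

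TRAJ31 was the TRAJ most joined to TRAV13, in 6.97% ± 0.602 (SD, n = 4) of in-frame rearrangements, close to the 6.83% of other TRAV. Of 43 TRAJ segments tested, 13 were higher in TRAV13 than in other TRAV (30.2% of those tested) and 13 were lower (30.2%) in edgeR's quasi-likelihood test with the library as a term. This test pooled all copies of the family, whose TRAJ usage differed as described above. The 4 largest rises were TRAJ6, TRAJ4, TRAJ9 and TRAJ39. TRAJ6 took 3.21% and 2.92% of the family's in-frame rearrangements in WT, compared with 2.92% and 3.07% in Tet2/3 DKO, against 1.85% to 2.07% of other TRAV, a log2 ratio of 0.63 ± 0.07 (SE, edgeR adjusted p = 1.1e-05). All 4 family values lay above all 4 values of other TRAV. TRAJ4, TRAJ9 and TRAJ39 rose by 0.57, 0.54 and 0.43 on the log2 scale. The 4 largest falls were TRAJ5, TRAJ7, TRAJ57 and TRAJ47. TRAJ5 took 0.396% and 0.182% of the family's in-frame rearrangements in WT samples versus 0.192% and 0.165% in Tet2/3 DKO samples, against 0.475% to 0.545% of other TRAV, a log2 ratio of -1.19 ± 0.26 (SE, edgeR adjusted p = 0.00199). Of the 43, TRAJ5 was the least joined to TRAV13, at a mean of 0.234%, so this ratio rests on few rearrangements. TRAJ7 and TRAJ57 fell by 0.83 and 0.75 on the log2 scale. TRAJ47 fell by 0.74 on the same scale, but its adjusted p in edgeR was 0.136 without Tet2/3 DKO replicate 1. Counted by reads, TRAJ57 and TRAJ47 did not pass either (edgeR adjusted p = 0.0564 and 0.396).

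**Figure D3:**
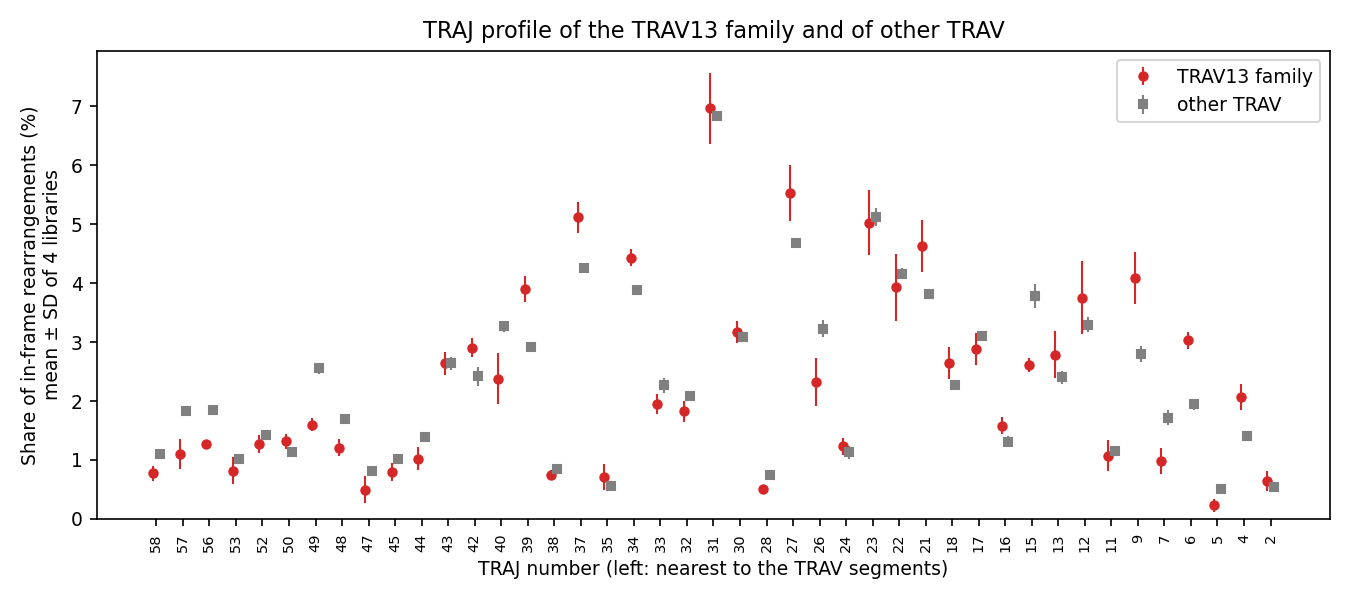
Share of in-frame rearrangements (%) that use each of the 43 TRAJ segments tested, ordered from the TRAV side of the locus, as mean ± SD of 4 libraries for the TRAV13 family (circles) and other TRAV (squares). The family lies above other TRAV at TRAJ6, TRAJ9 and TRAJ39 and below at TRAJ57, TRAJ49 and TRAJ5, and TRAJ31 is highest in both.

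Some neighbouring TRAJ segments moved in opposite directions. TRAJ4, TRAJ6 and TRAJ9 were higher in the family, and TRAJ5 and TRAJ7, which lie among them, were lower. Others moved alike, such as TRAJ12 and TRAJ13, both higher. Of the segments from TRAJ48 to TRAJ58 that were called, all were lower, and TRAJ48 to TRAJ61 together took 9.37% ± 0.652 (SD, n = 4) of the family's in-frame rearrangements against 12.6% ± 0.321 (SD, n = 4) of other TRAV. Counted by reads, 12 TRAJ segments were called in place of 26, 5 higher and 7 lower. Among 13 other V families with at least 500 in-frame rearrangements in every library, the TRAJ profiles most like that of TRAV13 were those of TRAV12 (Pearson r = 0.938), TRAV4 (0.937) and TRAV7 (0.926), across 44 TRAJ segments and the mean of the same 4 libraries.

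Fewer TRAV13 rearrangements than other TRAV rearrangements carried an in-frame CDR3. The in-frame share was 79.10% and 80.48% for WT mice and 77.95% and 78.28% for Tet2/3 DKO mice, against 85.9% to 86.5% for other TRAV. The family was lower in 4 of 4 libraries, with a mean difference of -7.31 ± 1.13 percentage points (SD, n = 4; exact sign-flip permutation p = 0.125). Nearly all of the rest was out of frame, and 0.181% to 0.348% of the family's rearrangements had a stop codon in frame. Tet2/3 DKO lay below WT with no overlap, with a difference of -1.67 percentage points, at the smallest exact permutation p of 0.333. Without WT replicate 2 the difference was -0.986 percentage points. Counted by reads the genotypes overlapped, with means of 83.2% ± 0.621 (SD, n = 2) in WT and 82.0% ± 3.13 (SD, n = 2) in Tet2/3 DKO.

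The in-frame share differed among the copies. TRAV13N-4 was in frame in 49.3% and 54.5% of rearrangements in WT, compared with 54.0% and 49.3% in Tet2/3 DKO. TRAV13D-3, which holds the frame-shifted form above, was in frame in 55.9% and 58.4% in WT samples versus 44.1% and 52.9% in Tet2/3 DKO samples. TRAV13D-4 ranged from 62.5% to 68.5% and TRAV13N-3 from 68.3% to 74.5%. TRAV13-1 (80.05% to 82.37%) and TRAV13-2 (73.9% to 82.4%) were less far from other TRAV, and TRAV13-1 held the most rearrangements not in frame of any copy, 664. All libraries of these 6 copies lay below all libraries of other TRAV. TRAV13D-1 and TRAV13N-1 ranged from 85.7% to 91.6%, and TRAV13D-2 from 83.6% to 86.6%.

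**Figure D4:**
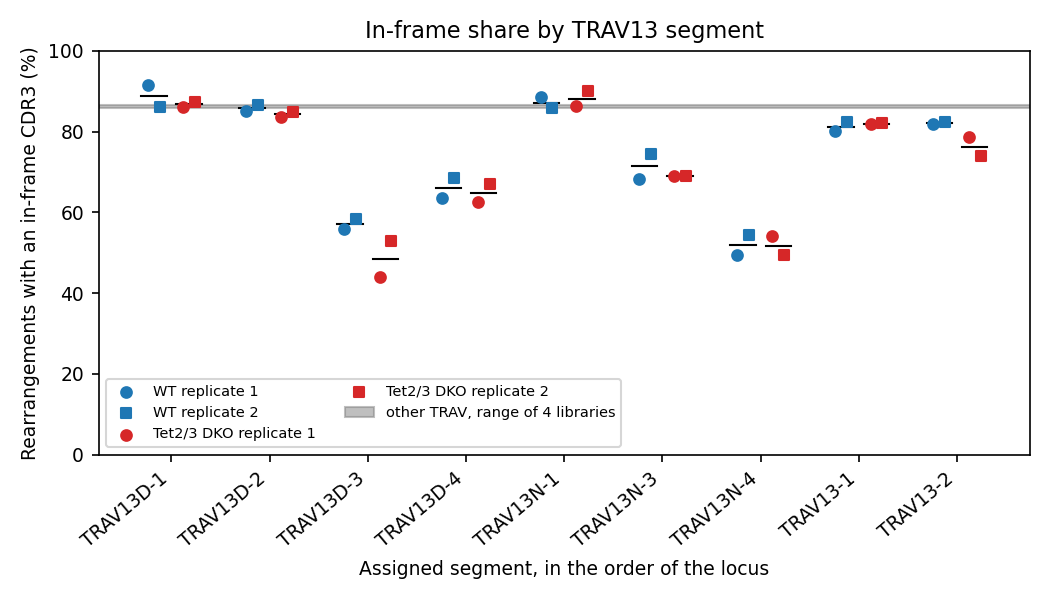
Share of rearrangements with an in-frame CDR3 (%) for each TRAV13 segment, in the order of the locus, with circles for replicate 1, squares for replicate 2, bars for genotype means and a grey band for the range of other TRAV over the 4 libraries. TRAV13D-3 and TRAV13N-4 lie below 59% in every library, and TRAV13D-1, TRAV13N-1 and TRAV13D-2 lie close to the band.

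In edgeR's quasi-likelihood test of productive against nonproductive rearrangements, 6 of 9 copies were lower among the productive, where 46.2% of 93 TRAV segments were lower, and 0 of 9 were higher, where 32.3% of the segments were. The log2 ratio was -2.47 ± 0.10 (SE, adjusted p = 2.28e-69) for TRAV13N-4, from 525 productive and 489 nonproductive rearrangements, the seventh lowest of the 93 segments. It was -2.42 ± 0.12 (SE, adjusted p = 5.09e-55) for TRAV13D-3, -1.64 ± 0.15 for TRAV13D-4 and -1.35 ± 0.14 for TRAV13N-3. The TRAV13D-3 ratio pools its short and long FR1 forms, with an in-frame CDR3 in 45.7% and 68.4% of clones. For 81-base TRAV13N-3 clones this share was 70.0%. TRAV13-2 at -0.67 ± 0.10 (SE) and TRAV13-1 at -0.42 ± 0.08 (SE) were called with smaller ratios, but TRAV13-1 turned to 0.26 without clones that lack the start of the V part (below). TRAV13D-1 (0.25 ± 0.15), TRAV13N-1 (0.25 ± 0.12) and TRAV13D-2 (-0.07 ± 0.08) did not pass the test. Each ratio is relative to the totals of productive and nonproductive TRAV rearrangements, and with TMM scaling the median over all segments moved up by 0.18. TRAV13D-1 and TRAV13N-1 were called higher with TMM scaling (0.43 and 0.43), with DESeq2 (0.40 and 0.39) and without shortened clones (0.42 and 0.46). Asking for the V part to be in frame as well was an alternative added after seeing the data. It takes shortened clones and the short FR1 form out of the productive side by construction, so its values are a description. TRAV13D-2, TRAV13-1, TRAV13-2, TRAV13N-4 and TRAV13D-3 stood at -0.61, -1.07, -1.55, -3.46 and -4.16. TRAV13N-3 and TRAV13D-4 stood at -1.28 and -1.77, and TRAV13D-1 and TRAV13N-1 at -0.0787 and -0.0114.

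Many TRAV13 reads lacked the start of the V part. In these clones FR1 and part or all of CDR1 were missing, and the deposited sequence began at a fixed place that depended on the copy. They made up 14.9% and 13.7% of the family's reads for WT mice and 14.8% and 10.4% for Tet2/3 DKO mice, against 0.321% to 0.452% of the reads of other TRAV. The genotypes overlapped, with an exact permutation p of 0.667. By clones they did not, at 16.9% and 14.6% of the family's clones for WT mice and 14.4% and 12.3% for Tet2/3 DKO mice, with the smallest exact permutation p of 0.333. Among 21 other V families with at least 2000 reads, the excluded TRAV13-4-DV7 came first with 16.5% of its reads and TRAV12 next with 2.15%.

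The stretch around the main starting place is shown from whole clones of the same copy, since it is the only place at which 86.7% or more of the shortened clones of a copy began, with the missing bases in lower case and the bases that were kept in capitals.
TRAV13-1, TRAV13D-1 and TRAV13N-1: cacatctttgaacagTATGCAGTGGTTTTA
TRAV13-2 and TRAV13D-4: acttttcctccacagCAACCCGGCTGCAGT
TRAV13D-2: acttttcctccacagCAACCCAGCTGCAGT
TRAV13N-4: tctttacaaaccaggTGCAGTGGTTTTACC
The missing stretch ended in ag in every copy but TRAV13N-4, where ag stood 1 base earlier. It was 92 bases long in TRAV13-1, TRAV13D-1 and TRAV13N-1, 85 in TRAV13-2, TRAV13D-2 and TRAV13D-4, and 94 in TRAV13N-4, and none of these lengths is a multiple of 3.

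TRAV13N-4 had the largest part of its reads in this form, 40.9% and 35.0% in WT, compared with 42.4% and 29.8% in Tet2/3 DKO. TRAV13-2 followed with 22.7% and 19.5% in WT samples versus 21.4% and 16.2% in Tet2/3 DKO samples, and TRAV13-1 with 17.8% and 18.9% for WT mice and 17.7% and 12.6% for Tet2/3 DKO mice. TRAV13D-1 and TRAV13N-1, which share the same stretch with TRAV13-1, ranged from 3.28% to 7.34%, below TRAV13-1 in every library. TRAV13D-2 ranged from 7.14% to 10.3%. TRAV13D-4 was the least even, from 3.27% to 20.8%, on 38 shortened clones in all. Among clones of TRAV13N-3 none was shortened, and among those of TRAV13D-3 only 1 was.

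**Figure D5:**
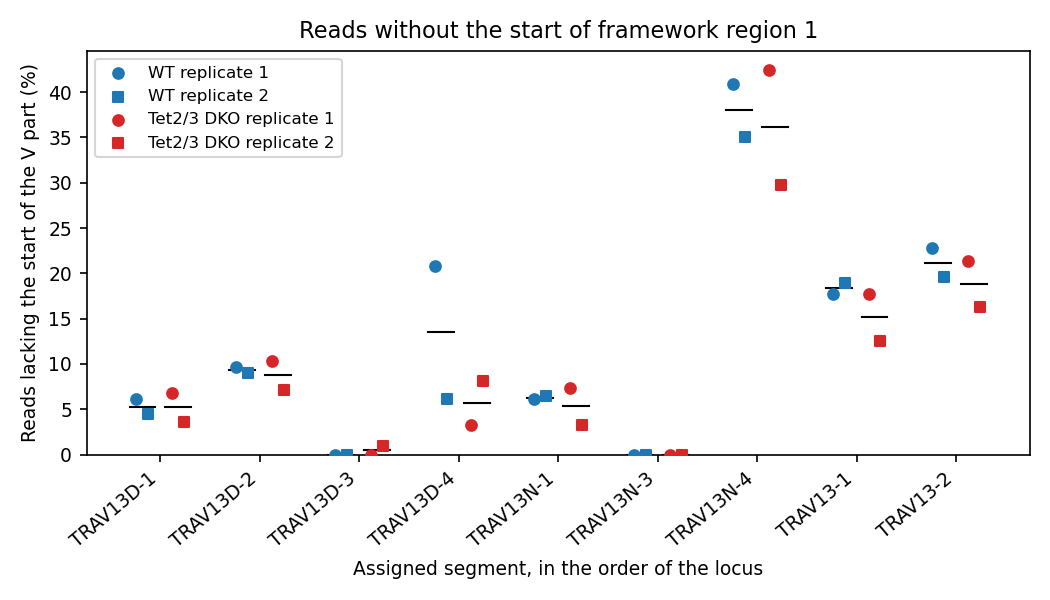
Share of each segment's reads (%) in clones that lack the start of the V part, in the order of the locus, with circles for replicate 1, squares for replicate 2 and bars for genotype means. TRAV13N-4 lies between 29.8% and 42.4%, TRAV13-1 and TRAV13-2 between 12.6% and 22.7%, and TRAV13D-3 and TRAV13N-3 at or near 0.

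With the clones of the 4 libraries pooled, the in-frame share at the CDR3 was lower in shortened than in whole clones in 3 of the copies. There the intervals did not overlap. These intervals count every clone as independent, so they do not measure the spread between mice. For TRAV13-1, 58.3% of shortened clones (500 of 858, Wilson 95% interval 54.9% to 61.5%) and 88.0% of whole clones (2936 of 3336, interval 86.9% to 89.1%) had an in-frame CDR3. TRAV13N-1 showed 63.6% of 99 and 89.4% of 1550, and TRAV13D-1 66.7% of 60 and 89.9% of 845. In 4 other copies the intervals overlapped, and the share of shortened clones was the higher in 3 of them. It was 88.7% of 406 shortened clones (85.2% to 91.4%) and 85.2% of 3735 whole clones (84.0% to 86.3%) in TRAV13D-2, 83.4% (79.1% to 86.9%) and 78.5% (76.4% to 80.5%) in TRAV13-2, and 52.8% (48.3% to 57.4%) and 50.7% (47.2% to 54.3%) in TRAV13N-4. In TRAV13D-4 it was 55.6% of 36 (39.6% to 70.5%) and 65.9% of 369 (60.9% to 70.5%). Of 2267 shortened clones with a CDR3, 366 (16.1%) had the same V segment number, TRAJ and CDR3 as a whole clone of their library. With shortened clones left out, an alternative added after these values were seen, 3 of 9 copies were higher among productive rearrangements, where 36.6% of 93 TRAV segments were, TRAV13-1 (log2 ratio 0.26, edgeR adjusted p = 0.00537), TRAV13D-1 and TRAV13N-1, and 5 of 9 were lower, where 45.2% of the segments were, with TRAV13N-4 at -2.53 and TRAV13D-3 at -2.46. TRAV13D-3, with its 1 shortened clone, could hardly move under this alternative. How the shortened sequences arose was not tested.

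In-frame TRAV13 CDR3s were shorter than those of other TRAV. The mean CDR3 length was 12.92 and 12.86 amino acids in WT, compared with 12.97 and 12.99 in Tet2/3 DKO, against 13.44, 13.45, 13.49 and 13.53 for other TRAV in the same libraries. The family was shorter in each of the 4 libraries, with a mean difference of -0.543 ± 0.0334 amino acids (SD, n = 4; exact sign-flip permutation p = 0.125). CDR3s of 12 amino acids made up 20.9% ± 0.666 (SD, n = 4) of the family and 14.5% ± 0.454 (SD, n = 4) of other TRAV, and those of 15 amino acids 7.20% ± 0.591 and 13.6% ± 0.585. TRAV13D-2 had the shortest mean of the 4 libraries, 12.72 amino acids, and TRAV13N-4 (13.13 to 13.45) and TRAV13D-3 (12.95 to 13.61) had the longest, with overlapping ranges. The Tet2/3 DKO libraries lay above WT by 0.0856 amino acids without overlap (exact permutation p = 0.333), by 0.131 when counted by reads and by 0.0565 without WT replicate 2, and other TRAV lay above WT in Tet2/3 DKO as well.

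The number of bases inserted at the V-J joint was similar: the family had 2.36 and 2.35 inserted nucleotides per in-frame rearrangement in WT samples versus 2.40 and 2.29 in Tet2/3 DKO samples, against 2.30 to 2.33 for other TRAV. The difference of 0.0418 ± 0.0387 nucleotides (SD, n = 4) had the other sign in 1 of 4 libraries, with an exact sign-flip permutation p of 0.25. Bases trimmed from the V end were more numerous in the family, 3.29 and 3.29 per in-frame rearrangement for WT mice and 3.24 and 3.02 for Tet2/3 DKO mice, against 2.06 to 2.14 for other TRAV. By copy, trimming was 2.59 bases for TRAV13-1 and 3.85 for TRAV13D-2, as means of the 4 libraries. These counts depend on the germline end that the aligner assigned to each copy.

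Large rearrangements, defined here as those with at least 0.02% of a library's TCRα reads, were few. The family had 20 in WT replicate 1, 8 in WT replicate 2, 8 in Tet2/3 DKO replicate 1 and 20 in Tet2/3 DKO replicate 2, which gave the same mean of 14 in both genotypes. They were 0.697%, 0.235%, 0.240% and 0.516% of the family's rearrangements in that order, below the 0.866%, 0.546%, 0.500% and 0.703% of other TRAV in the same libraries. Of the 56, 53 were in frame and none lacked the start of the V part in its most abundant clone. TRAV13-1 supplied 24 and TRAV13D-2 15 of them, and TRAV13D-4 none. The median TRAV13 rearrangement had 3 reads in every library.

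The 10 largest TRAV13 rearrangements together took 7.94% and 4.69% of the family's reads in WT, compared with 3.42% and 12.4% in Tet2/3 DKO. The WT values lay within the range of the Tet2/3 DKO values (exact permutation p = 1.0), and without Tet2/3 DKO replicate 2 the difference was -2.90 percentage points instead of 1.60. The largest TRAV13 rearrangement of Tet2/3 DKO replicate 2 is not reported here. Without it, the family's share of TCRα reads in that library was 6.95% instead of 7.24%. The largest TRAV13 rearrangement of WT replicate 1, WT replicate 2 and Tet2/3 DKO replicate 1 is shown by its CDR3, with inserted bases in capitals where there are any.
WT replicate 1, TRAV13-1 with TRAJ43: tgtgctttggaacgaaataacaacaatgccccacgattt
WT replicate 2, TRAV13D-2 with TRAJ13: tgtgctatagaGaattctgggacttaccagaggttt
Tet2/3 DKO replicate 1, TRAV13N-1 with TRAJ43: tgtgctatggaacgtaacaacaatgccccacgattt
The rearrangement of WT replicate 1 had 220 reads, 0.128% of TCRα reads, and that of WT replicate 2 had 99 reads, 0.0457%. In Tet2/3 DKO replicate 1 the largest had 67 reads, 0.0344%. Of these 3, the one of WT replicate 2 was also found in both Tet2/3 DKO libraries, with 3 and 4 reads, and the others had no read in another library. Each had at most 1 inserted base.

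Sharing between mice was limited. Of 12174 distinct TRAV13 rearrangements, 762 were found in 2 libraries, 175 in 3 and 67 in all 4. The 67 were 0.55% of the family's rearrangements, against 1.19% for other TRAV, 1476 of 124546. Of the 67, 66 were in frame and 46 (68.7%) had no inserted base, against 22.5% of all the family's rearrangements. The 6 with the highest mean share of TCRα reads are shown, again with inserted bases in capitals, because 5 of them have no inserted base.
TRAV13-1 with TRAJ23: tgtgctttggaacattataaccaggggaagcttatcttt
TRAV13-1 with TRAJ31: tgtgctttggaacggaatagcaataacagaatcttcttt
TRAV13-1 with TRAJ39, first: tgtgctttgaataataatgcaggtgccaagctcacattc
TRAV13D-2 with TRAJ4: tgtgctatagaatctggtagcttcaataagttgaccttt
TRAV13-1 with TRAJ39, second: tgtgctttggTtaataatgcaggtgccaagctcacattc
TRAV13-1 with TRAJ27: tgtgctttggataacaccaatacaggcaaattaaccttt
All 6 encoded a CDR3 of 13 amino acids. The TRAJ23 rearrangement had 10 and 18 reads in WT samples versus 13 and 237 in Tet2/3 DKO samples, so that its place rested on Tet2/3 DKO replicate 2. The TRAJ31 rearrangement had 58 and 16 reads for WT mice and 30 and 86 for Tet2/3 DKO mice. The first TRAJ39 rearrangement was more even, with 30 and 31 reads in WT, compared with 55 and 68 in Tet2/3 DKO, and the second had 24 and 24 in WT samples versus 31 and 28 in Tet2/3 DKO samples.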

How the data were processed

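TCRα transcripts were amplified from 20 ng of total RNA per library by template switching at the 5′ end and sequenced. Per the labels and the study's methods, the authors trimmed reads with fastp 0.21.0 after bcl2fastq 2.20.0, aligned them to mouse V and J segments with MiXCR and deposited, for each clone, a read count and the fraction of the library's reads. The deposited fraction equalled the count over the table's total. TCRβ tables were not used here.

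From the counts, clones were grouped by the first V hit, and rearrangements as V number, TRAJ and CDR3. Clones without a CDR3 (2.27% to 2.86% of family clones) were left out of rearrangements. A V part was called shortened when 20 or more bases were missing from its start. Tests across segments used edgeR 4.0.16 (quasi-likelihood, segments with low counts filtered, Benjamini-Hochberg over all segments, threshold 0.05) with DESeq2 1.42.0 as an alternative, and the library as a term for comparisons within libraries; they were tested on simulated data. Single values used exact two-sided permutation or sign-flip tests. Libraries of a group are separate samples per the labels, and p-values measure the spread between them. Named were all copies, the 4 largest TRAJ rises and falls with one direction in every library, the 3 most alike V families, each library's largest rearrangement and the 6 most abundant shared ones; the largest of Tet2/3 DKO replicate 2 is not reported here. Members and lists were chosen with earlier results of these data known, and the shortened clones, the FR1 and CDR2 forms and the comparison of TRAV13-1 and TRAV13-2 with the D and N copies were added after the values were seen. Alternatives counted reads or rearrangements, required 2 reads, took in-frame rearrangements only, changed scaling, tool, filter or threshold, or left out a library. Precision is limited by 2 libraries per genotype.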

Additional observations from a re-analysis of the deposited data

How the results depend on the processing

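Of 373 values under alternatives, 335 kept their direction and their side of the threshold (counts: stayed within 1.5 times). No exact permutation or sign-flip test here can pass 0.05, so for those results the side of the threshold was fixed in advance. With in-frame rearrangements only, the log2 ratio of the family's share (Tet2/3 DKO over WT) was -0.0105 instead of 0.0146. Leaving out each library in turn moved this ratio from -0.0206 to 0.0490, the genotype difference in mean TRAJ number from -0.859 to 0.00851, in mean CDR3 length from 0.0565 to 0.115 amino acids, in the in-frame share from -2.36 to -0.986 percentage points, in the 10 largest rearrangements from -2.90 to 6.10 percentage points, in large rearrangements, 0.0 with all libraries, from -6.0 to 6.0 and in shortened reads from -3.88 to 0.497 percentage points. For single copies by genotype the same ranges were -0.15 to 0.24 for TRAV13-1, -0.15 to 0.21 for TRAV13-2 and -0.0350 to 0.263 for TRAV13D-3. They were -0.18 to 0.10 for TRAV13N-3, -0.0571 to 0.348 for TRAV13D-4 and -0.0511 to 0.106 for TRAV13N-4. TRAV13D-1, TRAV13N-1 and TRAV13D-2 kept their sign, at -0.135 to -0.0161, 0.012 to 0.135 and -0.134 to -0.0145. Counting each rearrangement once gave -0.0622 for TRAV13N-1 and 0.16 for TRAV13N-3, neither called. With a threshold of 0.05% the difference in large rearrangements was 2.0. By reads, 12 TRAJ segments were called instead of 26, and 18 to 23 when a library was left out. Among productive rearrangements TRAV13D-2 was at 0.0709 with DESeq2 and 0.105 with TMM scaling, TRAV13-1 was at 0.26 without shortened clones, and TRAV13D-1 and TRAV13N-1 were at -0.0787 and -0.0114 when the V part also had to be in frame, which removes out-of-frame V parts from the productive side by construction; for the others the cause was not tested. Without Tet2/3 DKO replicate 1, 8 of 97 TRAV segments were called by genotype and none was a TRAV13 copy. With the replicate number as a replicate block, 0 of 97 segments and 0 of 692 pairs were called; the numbers share only a label. Reads counted for the 10 largest have no counterpart per rearrangement, and that alternative was not run.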
